A study of Mus musculus with 12 samples.

Results

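In GFP macrophages 392 of 100374 accessible regions had a peak in all 3 libraries after lipopolysaccharide (LPS) and in none of the 9 other libraries, which were untreated or came from cells with induced Nur77. They were selected on exactly that pattern of calls. Peaks of all 12 libraries that overlapped or touched were merged into regions on chromosomes 1 to 19, X and Y, and a library called a region when its list held a peak there. The assay was ATAC-seq, in which a transposase cuts and tags DNA that is not wrapped in nucleosomes, so that a peak marks accessible chromatin. The cells were stable lines of RAW264.7, a mouse macrophage line, carrying a doxycycline-inducible construct for GFP or for Nur77. All 4 groups had 1 µg/ml doxycycline for 18 h, the untreated groups included. The GFP + LPS and Nur77 + LPS groups also received 500 ng/ml LPS for 1 h, and the GFP untreated and Nur77 untreated groups received none. Each group had 3 libraries. The labels do not state that the 3 came from separate cultures, and each construct was studied in its own line, so a difference between the lines and an effect of the induced protein cannot be told apart.

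Nur77, the product of Nr4a1, is an orphan nuclear receptor and an immediate early gene of macrophages that is known to restrain inflammatory transcription. It binds the NBRE element as a monomer. LPS is a component of the outer membrane of Gram-negative bacteria that signals through TLR4 to MAP kinases, NF-kB and interferon regulatory factors. Within the first hour these factors bind enhancers that PU.1 and C/EBP proteins hold accessible, and they open further sites.

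Few of the regions lay over a gene start for which sequence was at hand, so sequence could be shown for few. A set of RefSeq promoter windows of the same build (GRCm38.p6, the assembly also called mm10) was used for this. Each window ran from 250 bases before to 50 bases after a transcription start. The set had a start for the nearest protein-coding gene of 315 of the 392 regions, so other starts could be missed. One chromosome, which holds 15 of the 392 regions, was left out of this step, so those regions were not compared with the windows. Among the remaining regions, 6 overlapped 7 such windows. They belong to Sema4a, a semaphorin of immune cells, Sstr3, a somatostatin receptor, Corin, the protease that activates atrial natriuretic peptide, and 3 predicted genes. The stretches below are the part of each window that lies under the region and upstream of the start, 5′ to 3′ on the strand of the gene. They are shown for the 4 protein-coding genes as examples. The regions at Sstr3 and Corin cover the start, and those at Gm11595 and Sema4a end 24 and 69 bp upstream of it. Capitals mark matches, on either strand, to GAGGAA (PU.1 and other ETS factors), CCCTC (core of the CTCF motif), GAAANNGAA (interferon regulatory factors) or TTGCNNAA (C/EBP).
Sema4a, chr3:88461251-88461432, minus strand: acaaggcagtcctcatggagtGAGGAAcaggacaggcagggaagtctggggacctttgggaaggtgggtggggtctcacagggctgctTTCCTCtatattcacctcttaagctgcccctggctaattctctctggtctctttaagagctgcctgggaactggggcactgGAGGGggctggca
Gm11595, chr11:99772937-99773163, minus strand: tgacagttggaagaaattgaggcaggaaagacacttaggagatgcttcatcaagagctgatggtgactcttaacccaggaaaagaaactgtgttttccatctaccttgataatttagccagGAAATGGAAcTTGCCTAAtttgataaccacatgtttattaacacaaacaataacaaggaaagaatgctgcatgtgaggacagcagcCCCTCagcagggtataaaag
Sstr3, chr15:78541407-78541656, minus strand: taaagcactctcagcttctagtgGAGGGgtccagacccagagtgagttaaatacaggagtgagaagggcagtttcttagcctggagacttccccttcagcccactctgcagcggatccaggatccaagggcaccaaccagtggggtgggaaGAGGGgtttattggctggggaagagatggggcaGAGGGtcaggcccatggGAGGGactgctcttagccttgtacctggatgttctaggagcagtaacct
Corin, chr5:72504541-72504635, minus strand: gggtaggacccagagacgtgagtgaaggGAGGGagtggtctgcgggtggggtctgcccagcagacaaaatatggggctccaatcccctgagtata

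The Sema4a stretch held GAGGAA 2 times, once on each strand, and the Gm11595 stretch held the interferon-type and C/EBP letters with 1 base between them. Of the 7 windows, 4 held GAGGAA, which 28.3% of all 32851 windows hold, 3 held GAAANNGAA (8.6% of all), 2 held TTGCNNAA (10.8%) and 6 held CCCTC (66.0%). No window held the AP-1 letters TGANTCA (7.8% of all), the CRE TGACGTCA (1.8%), the NF-kB letters GGGANNTTC (3.9%), the NBRE AAAGGTCA (1.5%), the GC box GGGCGGGG (17.6%) or the E-box CACGTG (7.2%). These matches describe 7 windows, and the sequences of the other regions were not used here. The windows at Gm41331, 1 of the predicted genes, overlap each other, so a match can be counted in both. A counted match need not lie under the region, as with GAGGAA at Corin. The 7 windows had a median GC content of 47.0% and a median of 2 CpG dinucleotides. All windows had medians of 52.7% and 7, and the 11999 windows under a region called in all 12 libraries had medians of 61.3% and 22. The regions at Sema4a and Gm11595 both ranked at a mean percentile of 33.6 in the GFP + LPS lists, the one at Sstr3 at 27.3 and the one at Corin at 14.2.

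The lists held 36184 to 81467 peaks, and the lowest summit they listed was 5 to 8 reads high. Heights were recovered from the authors' fold values. The caller's background, which rises with depth, ran from 0.402 to 1.45 reads over the 12 libraries. It differed most within the GFP + LPS group (0.411, 0.676 and 1.45 for replicates 1, 2 and 3), so replicate 1 of that group was its shallowest library. Of 22 genes of macrophage identity, 20 had a region at a gene end that was called in all 12 libraries, against 2 of 7 T cell, 1 of 6 B cell, 1 of 7 fibroblast and 0 of 6 epithelial marker genes. A region inside Nr4a1 (chr15:101270092-101272260) was called in 6 of 6 Nur77 and 0 of 6 GFP libraries. Chromosome 12 held 4.94% to 5.22% of the peaks in the GFP lists and 3.68% to 3.83% in the Nur77 lists.

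The pattern of 3 libraries of a group and none of the rest was most frequent in the GFP + LPS group. The 392 regions were 0.391% of all regions. The same pattern was met by 203 regions for GFP untreated (0.202%), 41 for Nur77 untreated (0.0408%) and 36 for Nur77 + LPS (0.0359%). Of the 6622 regions called in exactly 3 of the 12 libraries, 5.92% were called in the 3 GFP + LPS libraries. These shares come from the calls that chose the regions and carry no test. With a −log10 q minimum of 5 in every list the order held, at 316 regions for GFP + LPS and 204 for GFP untreated. With that minimum in the GFP + LPS lists only, which removes peaks from that group alone, the order turned, at 298 regions for GFP untreated and 220 for GFP + LPS. When every list was cut to its 36184 strongest peaks, 382 regions had the GFP + LPS pattern, but only 52 of the 392 (13.3%) were among them, and 113 regions instead of 36 had the Nur77 + LPS pattern.

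After LPS, 1487 regions were gained in GFP cells, that is, called in all 3 GFP + LPS and no GFP untreated libraries (1.48% of all regions). Of these, 568 (38.2%) were also called in all 3 Nur77 + LPS libraries, 250 in 2 of them, 252 in 1 and 417 (28%) in 0. Leaving out those called in any Nur77 untreated library left 1253 regions: the 392 with no Nur77 + LPS call, 219 with 1 call, 210 with 2 and 432 with 3. The 392 regions are thus 1 end of a range in which 429 others were called in some but not all Nur77 + LPS libraries.

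Regions that were stronger in the GFP + LPS libraries were more often called in all 3 Nur77 + LPS libraries as well. Summit heights were scaled by the median height of each library over regions called in all 12, and the height to be expected in each Nur77 + LPS library was divided by the lowest height that library listed. Of the 85 regions with a lowest ratio under 1.5, 39 (45.9%) had no Nur77 + LPS call and 12 (14.1%) had 3. Of the 238 regions at a ratio of 4 and over, 22 (9.2%) had no call and 168 (70.6%) had 3. Those 22 are the regions whose absence was least near the limit of detection, and they include the most prominent regions described below.

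**Figure D1:**
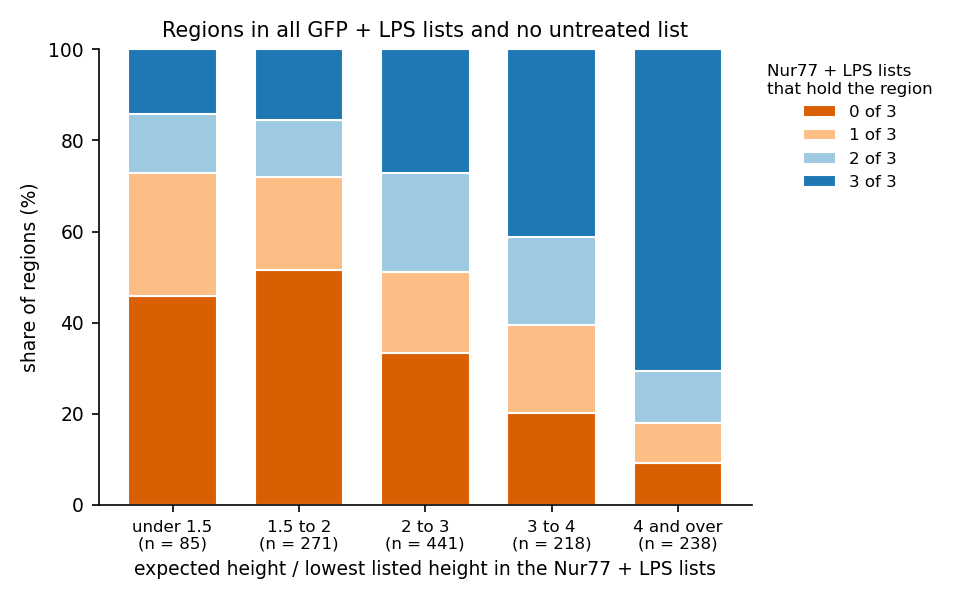
Regions called in all 3 GFP + LPS libraries and in no untreated library, by the expected height in the Nur77 + LPS libraries over the lowest height listed there (x axis, lowest of 3 ratios) and by how many of the 3 Nur77 + LPS lists held them (colours, percent of the regions in each bin). The share held by 0 lists went from 45.9% and 51.7% in the bins under 1.5 and from 1.5 to 2 to 9.2% in the bin at 4 and over, and the share held by 3 lists from 14.1% to 70.6%.

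All 392 regions would be listed in each of the 3 GFP untreated and 3 Nur77 + LPS libraries at the height they had in the GFP + LPS libraries, and 363 (92.6%) in all 9 other libraries. The 392 was fixed by the rule, since the lowest heights listed in the GFP + LPS libraries already give a scaled mean of 7.6 reads. That is above the scaled lowest heights of the GFP untreated and Nur77 + LPS lists, 5.07 to 6.95 reads. The 363 says little alone, because such shares were also high in a wider set. Of regions called in at least 3 libraries but missing from a given list, 69.3% to 100% would be listed there. Their heights were averaged over every library that called them, not over GFP + LPS only. At 2 times the lowest listed height the count for all 3 Nur77 + LPS libraries was 213 (54.3%), and at 3 times it was 66 (16.8%). List by list, 88%, 57.7% and 54.3% of the 392 reached 2 times in Nur77 + LPS replicates 1, 2 and 3. In the wider set of regions missing from the same list it was 51.4%, 31.1% and 23.3%. Scaled by background height instead, 119 regions (30.4%) reached 2 times and 24 (6.1%) reached 3 times in all 3 Nur77 + LPS libraries. A region had to be listed in all 3 GFP + LPS libraries to be chosen, which raises the heights these ratios start from.

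Calls in a library that the choice did not use gave a view of the pattern apart from the rule. With GFP + LPS replicate 1, 2 or 3 left out, regions were chosen on the 11 other lists, and 24.3%, 44.7% and 89.9% of them were called in the list left out. Among all regions called in the same number of those 11 lists, 9.4%, 17.7% and 55.5% were. The pattern therefore carried over to an unused GFP + LPS library 1.62 to 2.59 times as often as the background. Left-out Nur77 untreated libraries called 1.5%, 0.5% and 3.2% of the regions, against backgrounds of 20.2%, 3.2% and 23.3%. Left-out GFP untreated libraries called 7.3%, 17.1% and 21.1%, against 21.4%, 38.2% and 40.0%.

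The Nur77 + LPS libraries differed in this respect from both untreated groups. When left out they called 24.5%, 8.8% and 12.1% of the regions, against backgrounds of 29.2%, 8.5% and 15%, which is 0.81 to 1.04 times the background. Absence from 2 Nur77 + LPS libraries and the untreated ones thus went with absence from the third about as often as for any region called as rarely. The group means were 15.13% ± 8.28 for Nur77 + LPS, 15.17% ± 7.1 for GFP untreated, 1.73% ± 1.37 for Nur77 untreated and 52.97% ± 33.57 for GFP + LPS (SD, n = 3 each). The values behind each mean come from choices that share most of their lists, so the SD does not measure spread between independent samples. Within GFP + LPS the rate rose with library depth.

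**Figure D2:**
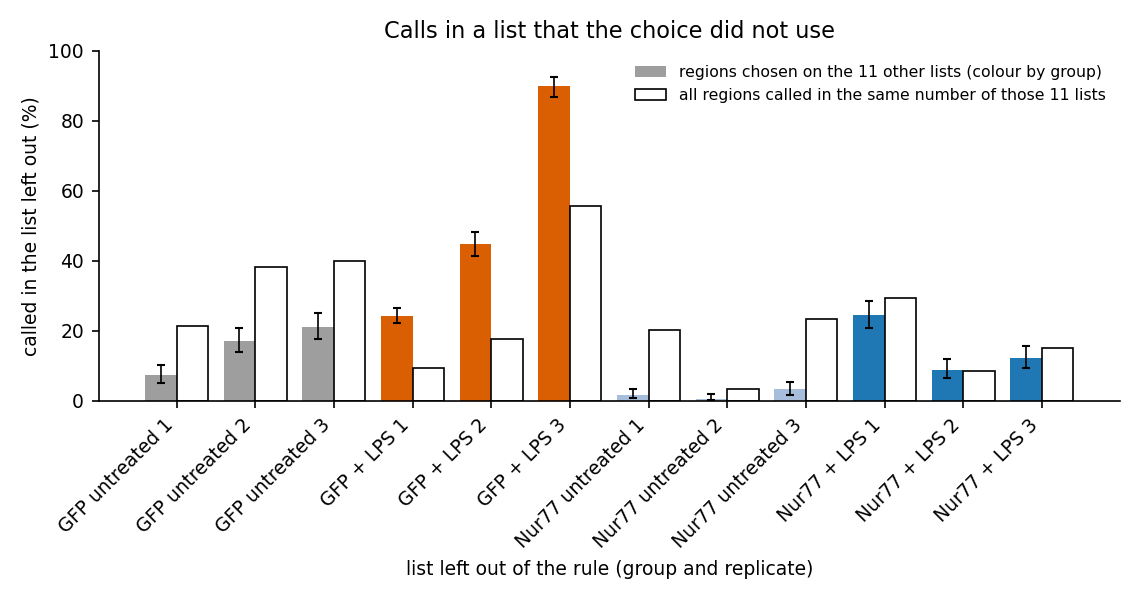
Percent of regions called in a library left out of the rule (filled bars, coloured by group, with exact 95% binomial intervals over regions, which cover counting error only), beside all regions called in the same number of the 11 other lists (open bars). Filled bars stand above the open ones for the 3 GFP + LPS libraries, below them for the 6 untreated libraries, and near them for Nur77 + LPS (24.5%, 8.8% and 12.1% against 29.2%, 8.5% and 15%).

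Most of the regions were weak peaks in the lists that held them. Within a list, peaks were ranked by the authors' −log10 q, with percentile 100 as the strongest. The median percentile of the 392 was 15.5 in GFP + LPS replicate 1, 27.3 in replicate 2 and 43.8 in replicate 3, and their median heights were 7, 11 and 21 reads against list medians of 14, 19 and 25. At the lowest listed height stood 69 of them (17.6%) in replicate 1, 34 in replicate 2 and 3 in replicate 3. The mean percentile ran from 2.5 to 65.1 with a median of 28.8, while the 432 regions opened in both lines had a median of 49.8. The summits of the 3 libraries lay within 100 bp of each other in 200 of the 392 regions (51.0%). Width had a median of 638 bp and ran from 260 to 3808 bp.

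The most prominent region lay inside Inhba (chr13:16007271-16008300), whose product forms activin A, a cytokine of the TGF-beta family that macrophages make. Its summits were 16, 32 and 49 reads high in GFP + LPS replicates 1, 2 and 3, at percentiles 55.0, 69.1 and 71.3. After scaling these heights were 34.4 ± 5.6 reads (SD, n = 3), at least 5.14 times the lowest height in each Nur77 + LPS list and 4.95 times that in each GFP untreated list. The nearest peak of another group was 3665 bp away.

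The Necab1 gene, which encodes a neuronal calcium-binding protein, held a region of 14, 38 and 42 reads (chr4:15023882-15024286, mean percentile 63.5), and no peak of the other 9 lists lay within 101420 bp of it. Rbfox1, the gene of a splicing factor, held 3 regions, of which 2 were in the top 20, at percentiles of 46.1, 70.0 and 71.8 (chr16:6889082-6889675) and of 55.0, 59.6 and 66.5 (chr16:6963585-6963872). The other, between them, had 10, 9 and 20 reads (mean percentile 31.1), and a further region lay 149.1 kb outside the gene (42.5). Myt1l, the gene of a neural zinc finger factor on chromosome 12, also held 3, of 12, 30 and 49 reads, of 17, 17 and 48 reads and, at a mean percentile of 13.9, of 5, 8 and 14 reads. In each of the 6 regions inside these 2 genes the height in reads was highest in replicate 3, the deepest library.

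Wwtr1 encodes TAZ, a coactivator of the Hippo pathway. The region inside it (chr3:57501463-57502157) had summits of 19, 19 and 55 reads and a mean percentile of 62.2 ± 11.6 (SD, n = 3). Ctsf, the gene of the lysosomal protease cathepsin F, held a region of 18, 20 and 52 reads (chr19:4858977-4859576, 61.8 ± 10.1). Arhgef28 held one of 14, 23 and 59 reads (chr13:98124193-98124912, 61.1 ± 13.4). All 3 genes thus held a region whose scaled height was at least 4.66 times the lowest listed height in every Nur77 + LPS library.

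Among factors that set cell identity, Foxa1, which encodes a forkhead pioneer factor, had a region inside the gene, 166 bp from an end of it (chr12:57540794-57541561), of 13, 24 and 45 reads. The region 10.3 kb upstream of Mmp13, a collagenase gene, had the same 3 heights (chr9:7261208-7262238), and both ranked at 58.3 ± 11.6 (SD, n = 3). Distant regions lay 281.7 kb from Id2, an inhibitor of helix-loop-helix factors, 213.2 kb from Sox9, a factor of cartilage and gland development, and 223.2 kb from Jarid2, a subunit of the Polycomb complex PRC2. They ranked at 57.8, 56.7 and 57.1. The rest of the top 20 lay at or near Triqk, Usp43, Cdyl, Thnsl1, Ksr2, a scaffold of the MAP kinase cascade, and Ltf, the lactoferrin gene, at 55.7 to 59.7. At such distances the nearest gene is a label of position only. In lists of equal length all 20 kept the pattern, which followed from their ranks because the cut also went by −log10 q. Mean percentiles of these 20 were then 26.0 to 42.2 in place of 55.7 to 65.1. Their scaled means stood at least 3.97 times above the lowest height of every Nur77 + LPS list, and 4 of the 20 lay on chromosome 12, where the Nur77 lists hold a smaller share of peaks. The part of that difference in these 4 absences was not tested.

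**Figure D3:**
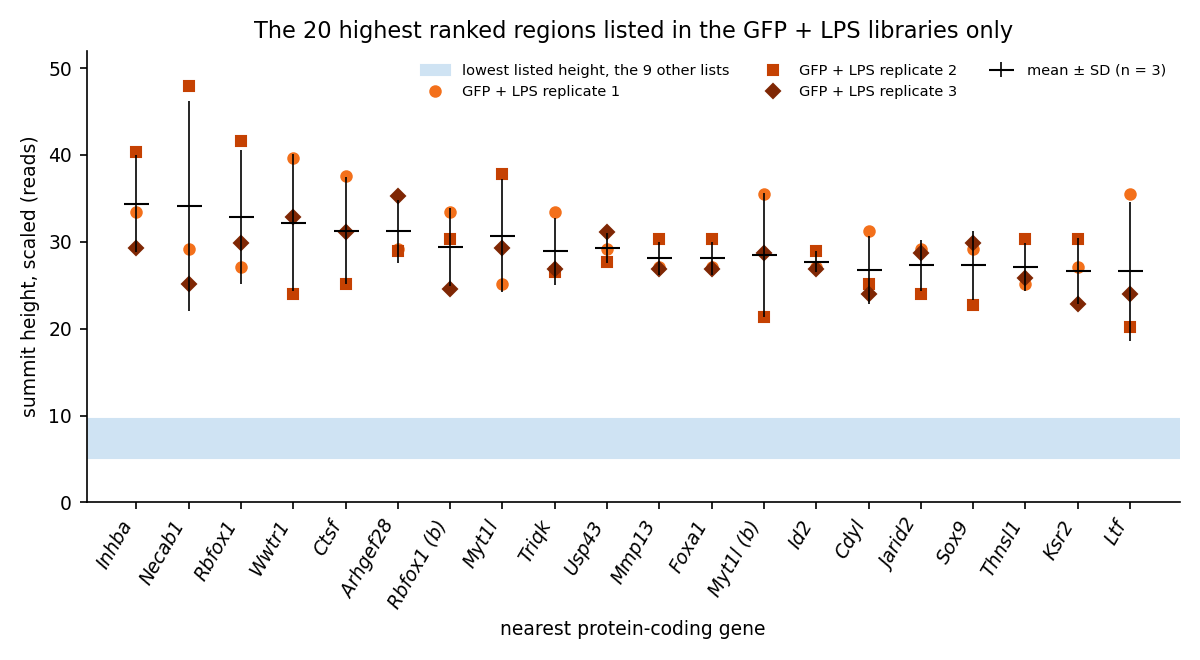
Scaled summit heights (reads) of the 20 highest ranked regions in GFP + LPS replicates 1, 2 and 3 (symbols) with mean and SD (n = 3), by nearest protein-coding gene, (b) marking a second region of a gene. The band spans the scaled lowest listed heights of the 9 other lists, 5.07 to 9.66 reads, and all 20 means, from 26.6 at Ltf to 34.4 at Inhba, stand above it.

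The 392 regions lay near genes of 14 lists about as often as all regions did, and those that did were mostly weak. Within 50 kb of the 265 matched genes of 14 lists lay 18 of the 392 regions (4.59%), close to the 4.45% of all regions that do, and 27 of the 432 regions opened in both lines (6.25%). The lists are immune signalling pathways, macrophage functions and markers of other cell types. In lists of equal length 14 of the 382 regions with the pattern lay near list genes. None of the 18 was among them, and all 20 regions of the top 20 were found again. Both outcomes followed from their ranks, because the lists were cut by the same −log10 q that set the percentiles. By list, 3 regions lay near NF-kB genes (0.77% against 0.46% of all regions, and 2.55% of the regions opened in both lines), 2 near cytokine and chemokine genes (0.51% against 0.36%), 3 near AP-1 and immediate early genes (0.77% against 0.52%), 3 near MAP kinase genes and phosphatases (0.77% against 0.44%) and 3 near interferon response genes (0.77% against 0.35%). Another 2 lay near lipid and energy genes (0.51% against 0.46%), and 1 each near the anti-inflammatory (0.26% against 0.32%) and the macrophage identity genes (0.26% against 0.48%). Near Toll-like receptor signalling genes, nuclear receptor genes and the 4 lists of other cell types there were 0, lists that hold 0.39%, 0.48% and 0.06% to 0.08% of all regions.

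The highest ranked of these lay 19.2 kb from Lpl, the lipoprotein lipase gene, with 12, 13 and 40 reads (chr8:68926180-68927196, mean percentile 47.7). Of the secreted factors, Ccl2 and Ccl7, neighbouring genes of monocyte chemoattractants, shared a region 33.2 kb from Ccl2 (chr11:82001631-82002401). Its summits of 8, 12 and 31 reads gave a scaled mean of 16.8 ± 1.8 reads (SD, n = 3), 2.51 times the lowest height of the Nur77 + LPS list where the margin was smallest. Around Ccl2, 17 regions lay within 50 kb, of which 4 were called in all 12 libraries. The GFP + LPS libraries called 11, 13 and 17 of them and the Nur77 + LPS libraries 6, 5 and 9, so the 2 LPS groups did not overlap at this locus, the chosen region being counted among them. This held at 4.62% of the 18641 protein-coding genes with a region within 50 kb. GFP untreated libraries called 9, 11 and 12, which overlapped with GFP + LPS, and Nur77 untreated libraries called 7, 4 and 6, so the lines did not overlap without LPS either. The latter held at 12.9% of those genes.

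Il10 encodes the main anti-inflammatory cytokine of macrophages. The region 25.6 kb from it had 7, 10 and 15 reads (chr1:130993618-130994272, percentile 22.6). At the locus the GFP + LPS libraries called 8, 11 and 15 of 17 regions, the Nur77 + LPS libraries 7, 6 and 8, and the GFP untreated libraries 6 each. The ranges of the 2 LPS groups met at 8, with the chosen region counted.

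Nfkb1, the gene of the NF-kB subunit p50 and its precursor p105, had 3 of the regions: 1 lay 2.1 kb outside the gene with 9, 16 and 12 reads (chr3:135694088-135694735), and the others, inside it, had 6, 8 and 9 reads and 5, 7 and 11 reads. This locus had 43 regions within 50 kb, 4 of them called in all 6 LPS-treated and no untreated library. The Nur77 + LPS libraries called 23, 18 and 14 of the 43, GFP + LPS 17, 26 and 39, and the 6 untreated libraries 2 to 8. Both LPS groups thus stood above every untreated library and overlapped with each other, with the 3 chosen regions counted. The share of gene loci with this order was not worked out.

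Among first-wave genes, the region 45.6 kb upstream of Fos, the AP-1 subunit induced within minutes, had 6, 9 and 21 reads (chr12:85427791-85428273). The regions near Ier5, an immediate early gene, and Batf3, an AP-1 family factor of dendritic cells, had 7, 7 and 22 reads and 5, 11 and 16 reads. Near the phosphatase genes Dusp16 and Dusp5, which encode brakes on MAP kinases, and near Map2k3, a kinase upstream of p38, mean percentiles were 27.5, 16.4 and 10.5. Ptgs2, which encodes cyclooxygenase-2, Hif1a, the hypoxia factor gene, and Zeb2, a repressor gene of macrophage identity, had regions at 15.8, 22.9 and 13.1. In every region of this paragraph the scaled mean height stayed within 2.04 times the lowest height of the least favourable Nur77 + LPS list, so at these loci absence with Nur77 lay near the limit of what the lists could show.

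Some of the regions lay in runs. Within 50 kb of another of the same set stood 17.4% of the 432 regions opened in both lines and 7.4% of the 203 with the GFP untreated pattern. Among the 6622 regions called in exactly 3 libraries it was 45.3%. Such shares grow with the size of a set, so they cannot be compared directly. Of the 392 it was 55 (14.0%), in 22 runs. The longest held 9 regions inside Rps6ka2, which encodes the ribosomal S6 kinase RSK3, a target of the ERK pathway (chr17:7244626-7291279, widths 918 to 3039 bp). Peaks covered 10476, 16612 and 34417 bp of this span in GFP + LPS replicates 1, 2 and 3, in 16, 21 and 19 peaks. All 6 untreated libraries listed no peak there, and the Nur77 + LPS libraries covered 2688, 1975 and 0 bp. This span and those below are bounded by regions chosen for absence from the other lists, and those regions are part of the lengths. How often the LPS groups part at other spans was not worked out. The 9 regions were weak and broad, at mean percentiles of 12.6 to 29.0, with summits of 5 to 8 reads in replicate 1 and 12 to 21 in replicate 3.

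A second broad domain lay inside Atp13a4, a gene of a P5-type cation transporter (chr16:29390720-29414532). Its 3 regions included the widest of all, 3808 bp, and the GFP + LPS libraries covered 1806, 6453 and 6779 bp, against 0 bp in each of the 9 other libraries. Lrrc8d, which encodes a subunit of the volume-regulated anion channel, held 2 regions in a span of 36.3 kb. There the GFP + LPS libraries covered 2813, 6192 and 14205 bp and the Nur77 + LPS libraries 3701, 3288 and 887 bp, so that the shallowest GFP + LPS library fell within the Nur77 + LPS range. Covered length moved with depth in all 3 domains, being smallest in replicate 1 and largest in replicate 3.

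The interferon-stimulated gene pair Rsad2, which encodes viperin, and Cmpk2, its neighbour, carried a run of 3 regions on chromosome 12 (chr12:26452098-26464743). The first, inside Rsad2, had 11, 9 and 24 reads (percentiles 38.2, 17.7 and 49.0), the second 7, 7 and 19 reads and the third, 4.4 kb from Cmpk2, 5, 13 and 21 reads. The span was covered over 4738, 4168 and 5758 bp in GFP + LPS, 2291, 1804 and 1800 bp in Nur77 + LPS, and 1104, 1234 and 1489 bp in GFP untreated. Here too the chosen regions bound the span and are part of the lengths, so the choice itself raised the GFP + LPS lengths. The Nur77 + LPS lengths lay above those of GFP untreated, and the share of other spans with this order was not worked out. Nur77 untreated libraries covered 1034, 0 and 0 bp. The smaller share of chromosome 12 peaks in the Nur77 lists stands beside these lengths, and its part in them was not tested.

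Tnfsf4, the gene of OX40 ligand, a costimulatory molecule, had 2 regions in a span of 15.5 kb, the nearer of them 18.2 kb from the gene. They had 11, 17 and 41 reads (chr1:161361685-161362166) and 8, 11 and 18 reads (chr1:161375980-161377188), and none of the 9 other libraries listed any peak between them. The same held for pairs inside Fat3, a protocadherin gene, and near Twist2, a helix-loop-helix factor gene. These 3 runs were picked for description after their values were seen.

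**Figure D4:**
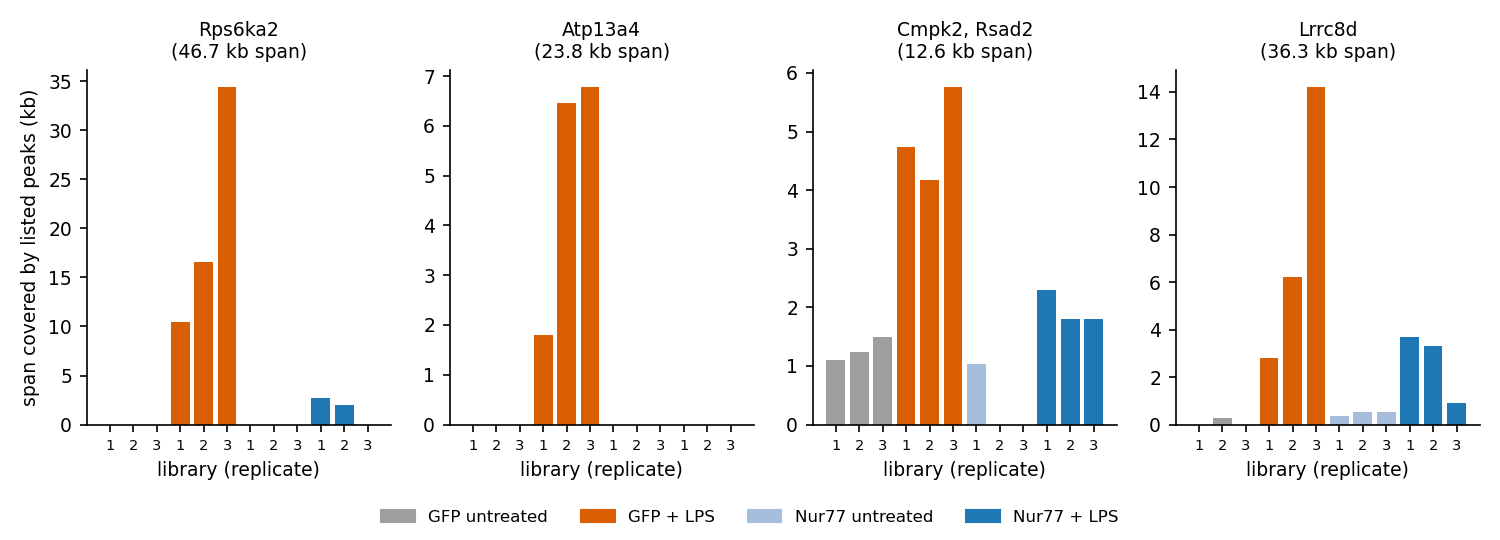
Length covered by listed peaks (kb) at 4 runs of regions, 1 bar per library, coloured by group, each panel with its own scale. The chosen regions bound each span and are part of the lengths. At Rps6ka2 the 3 GFP + LPS bars stand above all others and differ by depth (10476, 16612 and 34417 bp), at Atp13a4 they are the only bars, and at Lrrc8d the first of them (2813 bp) lies below 2 Nur77 + LPS bars (3701 and 3288 bp).

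Position in the genome was not used to choose the regions. Within 1000 bp of a gene end lay 18 (4.59%), inside genes 173 (44.1%) and between genes 201 (51.3%). The share away from gene ends was 95.41% (exact binomial 95% interval 92.84% to 97.26%, counting error over regions only). It was 84.0% over all regions, 92.74% over regions called in exactly 3 libraries, 93.29% over regions opened in both lines and 61.48% over regions called in all 12. Median distance to a gene end was 28.4 kb, against 10.3 kb for all regions, 14.0 kb for those called in exactly 3 libraries and 17.8 kb for those opened in both lines. Within 50 kb of a region opened in both lines lay 21 of the 392 (5.4%), beside 4.6% of the regions called in exactly 3 libraries and 4.4% of all regions. A peak of some other list lay within 1 kb of 58 regions (14.8%), and a Nur77 + LPS peak within 1 kb of 44 (11.2%).

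Chromosomes 1 and 12 held more of the regions than their share of all regions. Chromosome 1 had 43 (11% against 6.5%), chromosome 12 had 40 (10.2% against 5.0%), and X had 1 (0.3% against 1.4%). Regions opened in both lines lay on chromosome 12 in 1.6%. The GFP untreated pattern had 7.4% of its regions there, while both Nur77 patterns had 0 of 41 and 0 of 36. Chromosome 12 is where Nur77 lists hold fewer peaks in both treatments, and without it 352 of the 392 regions remained.

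**Figure D5:**
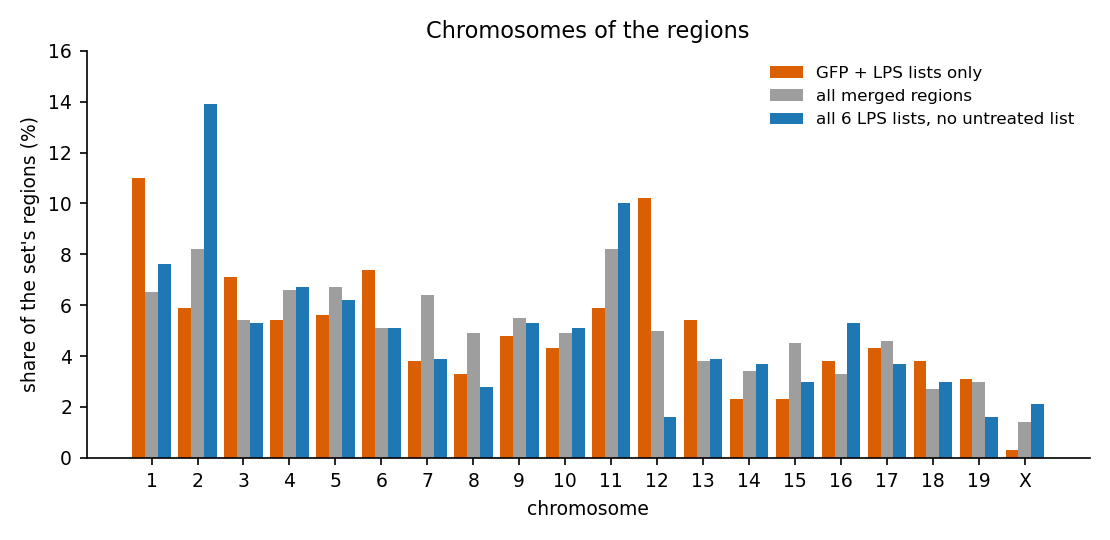
Share of regions on each chromosome (percent of the set) for the 392 regions called in the GFP + LPS libraries only, all 100374 merged regions, and the 432 regions called in all 6 LPS and no untreated libraries. Chromosome 12 has 10.2%, 5.0% and 1.6% in these 3 sets, and chromosome 1 has 11%, 6.5% and 7.6%.

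The edge of the rule cut through regions of like strength. Just outside it were 457 regions with all 3 GFP + LPS calls and 1 further call, which fell in the Nur77 + LPS libraries in 127, 38 and 54 cases, in GFP untreated in 31, 81 and 105, and in Nur77 untreated in 6, 2 and 13. Their median percentile was 31.7, beside 28.8 inside the rule. The strongest, 61.7 kb from Tbx4, a T-box factor gene of hindlimb and lung, had 26, 35 and 89 reads in GFP + LPS and 12 reads in Nur77 + LPS replicate 2 (chr11:85977838-85978605). The next, 47.4 kb from Gli3, a Hedgehog pathway factor gene, had 22, 38 and 87 reads, and 9 in GFP untreated replicate 2 (chr13:15777417-15778152). Others inside Spire1 and Dlg2 and 22.2 kb from Rtl1 ranked at 66.0 to 70.4. All 5 thus ranked above the region at Inhba in the GFP + LPS libraries, and each had a peak of lower percentile in 1 other library.

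A further 1751 regions had 2 of 3 GFP + LPS calls and no other call, and 1222 of these lacked the call in replicate 1, the shallowest library, 485 in replicate 2 and 44 in replicate 3. The strongest of them lay inside Adtrp, Pde3b, a phosphodiesterase gene, and Met, the hepatocyte growth factor receptor gene, 59 kb from Tafa1 and 270.5 kb from Htr2a, and all 5 were missing from replicate 1 alone, at 64.0 to 67.0. Just inside the rule, the weakest 2 regions, 25.2 kb from Slc5a1, a glucose transporter gene, and inside Fgfr2, a fibroblast growth factor receptor gene, stood at the lowest listed height of all 3 libraries (5, 6 and 8 reads, mean percentile 2.5). Those 4.6 kb from B3glct, inside Dnaaf4 and 7.0 kb from Pkp1 followed at 5.2, 6.8 and 7.4.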

How the data were processed

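ATAC-seq peak lists of 12 libraries, 3 in each of 4 groups named in the titles, were used. Per the labels, tagmentation took place at 37 °C for 45 min, with size selection below 700 bp. Cutadapt 2.6, DiffBind 3.0.15 and build mm10 are named per the submitters' processing notes. The aligner is not given in the sources used here, nor is the caller. Names of deposited peaks state a q value of 0.001, mapping quality 20, and that duplicate and mitochondrial reads had been taken out. The deposited score is the authors' whole number per peak. The deposited fold is the authors' ratio of summit over background. The −log10 p and −log10 q are the authors' as well, taken at each summit, and served to order and filter peaks inside each list.

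Rows with equal start and end were collapsed and peaks merged. Starts are printed 1-based. Summit heights were derived as the fold times (background plus 1), less 1, with the background that makes 100% of them whole within 0.1 reads. Read totals were not used here. Regions were placed by distance to 21887 protein-coding genes of the RefSeq GRCm38.p6 table, either end of a gene counting as its end. The code was tested on simulated data. No significance test was run, since the calls chose the regions. The members and gene lists were chosen with earlier results of these data known.

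Named regions are the 20 of highest mean percentile, those within 50 kb of a list gene (up to 30), the 5 weakest, and the 5 highest of each kind just outside the rule; those at promoters and in runs were added after their values were seen. Alternatives were other ways of merging, equal list lengths, a −log10 q minimum, looser rules, no chromosome 12, and each library left out. The work used Python 3.11.15 with scipy 1.17.1, pandas 2.3.3, matplotlib 3.10.9 and numpy 2.4.6.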

Additional observations from a re-analysis of the deposited data

How the results depend on the processing

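Over 22 alternatives the count of 392 regions stayed within 1.5 times except where only the GFP + LPS lists had a −log10 q minimum of 5 (220 regions), with 2 of 3 GFP + LPS calls (2143), with 1 call allowed elsewhere (849), and without GFP + LPS replicate 1 (1614) or 2 (877). With 1 library left out it ran from 394 to 1614. The regions themselves changed more than their number: 289 of the 392 (73.7%) were found again with regions built from summits, 197 (50.3%) when peaks had to cover 50% of the widest, and 52 in lists of equal length. Near list genes the same looser or stricter rules gave 6, 80 and 37 regions for 18, and 18 to 68 with a library left out. Regions expected in all 9 other lists numbered 220, 1340 and 788 for 363, and 369 to 908 with a library left out. The Nur77 + LPS pattern gave 113 regions in lists of equal length and 75 with the −log10 q minimum in the GFP + LPS lists only, for 36. The share away from gene ends was 91.33% with 2000 bp as the limit and 94.22% to 95.9% with a library left out. Chromosome 12 fell to 0% by construction where it was dropped and otherwise ran from 7.931% to 10.21% with a library left out. The median percentile then ran from 20.34 to 29.57. The 43 named regions were kept in 16 to 22 of the 22 alternatives. Lists of equal length, cut by the −log10 q that also ranks the regions, lost the 18 near list genes and the 5 weakest. The planned motif scan of all regions was not run, since no genome sequence was used. No paired analysis was possible because the result comes from no test. Peaks under 5 to 8 reads are not listed, so absence of a region says that none was detectable, not that its chromatin was closed.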
